A study of Mus musculus with 8 samples.

Results

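Heterochromatin regulators of odorant receptor (OR) choice were followed here across 8 samples of olfactory mucosa: the histone demethylase Kdm1a, the histone methyltransferases Ehmt1, Ehmt2, Setdb1 and Suv39h1, the heterochromatin protein 1 (HP1) genes Cbx1, Cbx3 and Cbx5, and the lamin B receptor Lbr. Members were the array rows whose only gene symbol was one of these 9. The rule found 14 rows, out of 21789 rows with 1 gene symbol and 35557 rows in all, and they named 8 of the 9 genes. Suv39h1 was named by 0 rows and was not analysed here. Cbx3 had 7 rows and each of the other 7 genes had 1.

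The samples came from mice at postnatal day 1 on a mixed 129 x C57BL/6J background. The Emx2 knockout group was 123Cre:Emx2(fl/fl) (n = 4), in which Cre recombinase can delete both floxed alleles of the homeodomain transcription factor Emx2. The control group was littermates (n = 4), of which 2 were 123Cre:Emx2(fl/+) with Cre and 1 floxed allele (control replicates 1 and 4) and 2 were Emx2(fl/fl) without Cre (control replicates 2 and 3). Every mouse therefore carried at least 1 floxed allele, and none was wild type at Emx2. Per the study's methods, 123Cre becomes active in immature olfactory sensory neurons (OSNs), recombination by 123Cre reaches only part of the OSNs, and mice of both sexes were used. RNA of the whole mucosa was measured, so that cells without Cre contributed to every value, and fewer cells of a type cannot be told apart from less RNA per cell.

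Each OSN expresses a single OR allele, and the others lie in silent heterochromatin marked by methylation of lysine 9 of histone H3 (H3K9) and of histone H4 (H4K20). Methyltransferases such as Setdb1, Ehmt1 and Ehmt2 write the H3K9 mark, HP1 proteins bind it, and Lbr ties HP1-bearing chromatin to the nuclear envelope. Kdm1a, also called LSD1, is needed early in OSN differentiation for a first OR to be expressed, and its loss of expression after choice is part of the feedback that keeps the choice stable. Lbr is lost as OSNs differentiate, which lets the silent OR genes gather in the centre of the nucleus.

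Values are on the log2 scale as deposited, 1 per transcript cluster, and a difference of 1 is a doubling. Values of different genes come from different probes and were not set against each other. Array medians lay between 7.998 and 8.129. Emx2 (transcript cluster 10464391) was 9.80, 9.86, 10.01 and 9.93 in knockout replicates 1 to 4, against 10.80, 10.86, 10.997 and 10.72 in control replicates 1 to 4, a difference of -0.94 ± 0.082 (SE) and a level of 52.0% of control (limma, adjusted p = 0.001403). Lhx2, the other OSN homeodomain factor of this study, differed by -0.0040 (adjusted p = 0.9999) and Omp, the marker of mature OSNs, by -0.058 (adjusted p = 0.9999). Gap43, a marker of immature OSNs, differed by -0.23 with no overlap between groups (adjusted p = 0.5644). The array of knockout replicate 2 was the least like the rest, with a mean correlation of 0.978 with them against 0.987 to 0.990 for the other 7. Across all 23410 rows with a symbol, 84 passed an adjusted p of 0.05, which is 0.359%. Of these, 82 were lower (0.35% of rows) and 2 higher (0.00854%) in knockouts.

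The RefSeq promoter windows of the members (build GRCm38.p6) covered 250 bases before to 50 bases after each annotated start. All 9 genes had a window, 13 in total. They were searched on both strands for TAAT, the core that homeodomain proteins such as Emx2 and Lhx2 bind, and for the palindrome TAATTA, which contains it. TAAT was in 4 of the 13 windows, in the single windows of Kdm1a and Cbx1 and in 1 of 2 windows each of Cbx5 and Suv39h1, while 58.0% of all 32851 windows held it. TAATTA was in 0 of the 13 and in 5.29% of all windows. The member windows held 52.7% to 82.7% G or C, against a median of 52.7% over all windows. Cbx1, at 52.7%, and the Suv39h1 window with TAAT, at 53.0%, lay at or close to that median. A match describes the letters in the window and is not a binding site. The windows of Kdm1a, Cbx1 and Cbx5 that hold the core are shown because they are the only member windows with a row on the array and a match. TAAT, or ATTA where the match is on the other strand, is in capitals.
Kdm1a, chr4:136602674-136602973, minus strand: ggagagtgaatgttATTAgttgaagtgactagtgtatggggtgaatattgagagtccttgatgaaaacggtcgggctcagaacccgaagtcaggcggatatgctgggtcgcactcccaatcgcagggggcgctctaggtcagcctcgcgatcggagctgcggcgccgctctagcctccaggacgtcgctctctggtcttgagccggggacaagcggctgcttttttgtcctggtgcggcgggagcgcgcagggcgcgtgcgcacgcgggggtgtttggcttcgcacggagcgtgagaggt
Cbx1, chr11:96788885-96789184, plus strand: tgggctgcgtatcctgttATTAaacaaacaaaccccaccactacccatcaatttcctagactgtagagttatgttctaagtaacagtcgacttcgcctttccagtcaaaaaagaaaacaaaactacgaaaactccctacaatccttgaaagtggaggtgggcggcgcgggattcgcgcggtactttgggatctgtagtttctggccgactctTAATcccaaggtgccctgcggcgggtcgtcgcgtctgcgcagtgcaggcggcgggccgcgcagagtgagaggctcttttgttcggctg
Cbx5, chr15:103239803-103240102, minus strand: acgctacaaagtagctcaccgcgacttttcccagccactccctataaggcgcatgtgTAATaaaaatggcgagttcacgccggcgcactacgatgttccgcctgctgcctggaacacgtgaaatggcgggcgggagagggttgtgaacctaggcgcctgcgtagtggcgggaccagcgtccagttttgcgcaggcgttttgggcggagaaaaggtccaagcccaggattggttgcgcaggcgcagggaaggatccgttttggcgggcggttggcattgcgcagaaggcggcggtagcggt
Counted from the annotated start, the match began at -236 in Kdm1a, at -193 in Cbx5, and at -232 and -38 in Cbx1.

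The first comparison asked whether loss of Emx2 from OSNs changed the expression of these regulators. No member passed the test, and all 8 differences were small, between -0.11 and -0.023 on the log2 scale. All 8 lay below 0, as did 48.4% of all rows, and the median of the 8 was -0.063 against 0.0041 over all rows. At an unadjusted p of 0.05 the count of members was 0 of 8 by limma, against 6.1% of all rows, and 1 of 8 by the methods' t-test, Setdb1, against 7.08% of all rows by that test. The knockout and control values overlapped for every member, where 2.54% of all rows had all knockouts below all controls and 1.98% all knockouts above them. The sign against 0 depended on the scaling. Centring arrays on a list of 18 mature OSN genes moves every row by the same amount, and it took the median of all rows to 0.15. All 8 members then lay above 0, from 0.035 to 0.12, and 0 of 8 passed. They lay below the median of all rows with and without the centring, an order that such a shift cannot change. With arrays centred on the median of rows with no receptor symbol 8 of 8 lay below 0, and with quantile normalisation 7 of 8.

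**Figure D1:**
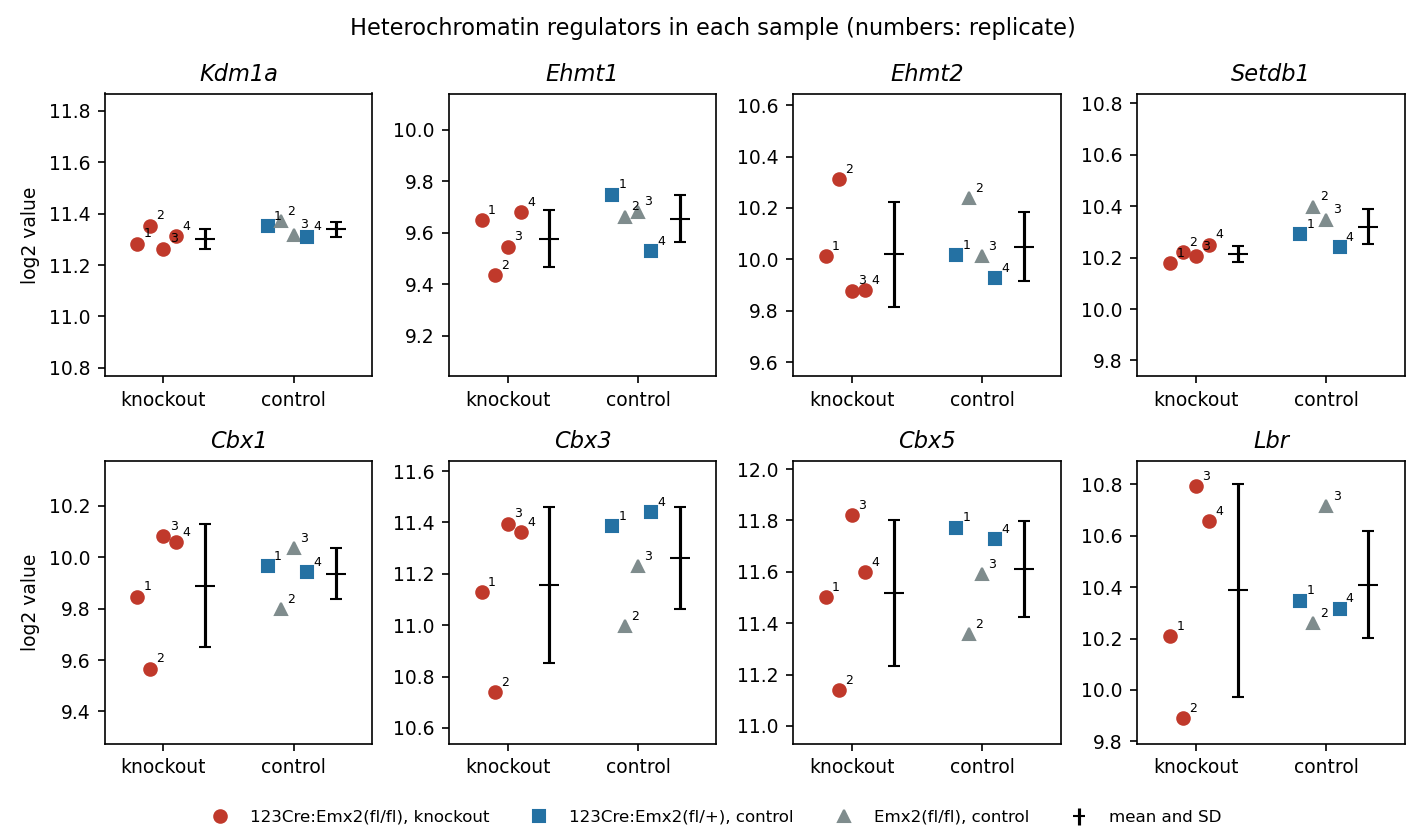
Log2 value of each member in each sample, knockouts left and controls right, with the mean and SD of 4 samples beside the points and all panels spanning the same range of log2 units. Kdm1a and Setdb1 stay within a range of 0.11 and 0.22, while Lbr and Cbx3 spread over 0.90 and 0.70, or 0.58 and 0.44 without knockout replicate 2.

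Among the demethylases, Kdm1a (transcript cluster 10517465) was 11.28, 11.35, 11.26 and 11.31 in knockout replicates 1 to 4, against 11.35, 11.37, 11.32 and 11.31 in control replicates 1 to 4. Its 8 values lay within 0.11 of each other, with knockout replicate 3 lowest and control replicate 2 highest. It averaged 11.30 ± 0.039 in knockouts and 11.34 ± 0.029 in controls (SD, n = 4 each). The difference of -0.035 ± 0.059 (SE) has a 95% interval of -0.17 to 0.098, which is 89.0% to 107% of the control level (adjusted p = 0.9999). This was the narrowest interval of the 8 members. A fall of the size seen for Emx2, the deleted gene itself, lies outside the intervals of all 8 and so does not set Kdm1a apart.

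The methyltransferases Ehmt1 and Ehmt2, known as GLP and G9a, form a dimer that places mono- and dimethyl marks on H3K9. Ehmt1 (10480541) was 9.65, 9.44, 9.55 and 9.68 in knockout replicates 1 to 4, against 9.75, 9.66, 9.68 and 9.53 in control replicates 1 to 4. The difference was -0.078 ± 0.081 (SE), with a 95% interval of -0.26 to 0.11 (adjusted p = 0.9999). Knockout replicate 2 was its lowest sample and control replicate 1 its highest.

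Ehmt2 (10444524) was 10.01, 10.31, 9.88 and 9.88 in knockout replicates 1 to 4, against 10.02, 10.24, 10.01 and 9.93 in control replicates 1 to 4. Replicate 2 was the highest sample of each group, and knockout replicates 3 and 4 lay just below every control. The difference was -0.028 ± 0.11 (SE), with a 95% interval of -0.29 to 0.23 (adjusted p = 0.9999). Without knockout replicate 3, knockout replicate 4 or control replicate 2 the difference lay above 0, at 0.019, 0.018 and 0.035, and did not pass.

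Setdb1, which trimethylates H3K9 in euchromatin and on retroviral elements, came nearest to a difference. It (10500157) was 10.18, 10.22, 10.21 and 10.25 in knockout replicates 1 to 4, against 10.29, 10.40, 10.35 and 10.24 in control replicates 1 to 4. Of the 4 knockouts, 3 lay below the lowest control, and knockout replicate 4 lay just above it. It averaged 10.21 ± 0.030 in knockouts and 10.32 ± 0.068 in controls (SD, n = 4 each), a difference of -0.11 ± 0.063 (SE) with a 95% interval of -0.25 to 0.038, or 93.0% of the control level. This did not pass (limma unadjusted p = 0.1307, adjusted p = 0.9187), and the exact permutation test, two-sided and over 70 regroupings of the samples, gave p = 0.05714, where the smallest p possible is 0.02857. The methods' t-test, run without the study's normalisation to mature OSN mRNAs, gave an unadjusted p of 0.0301 and an adjusted p of 0.6363. With arrays centred on the list of 18 mature OSN genes used here, the limma difference of Setdb1 was 0.036. That list is not the study's set of mature OSN mRNAs, so the value does not show what the study's normalisation would give.

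The HP1 genes encode the readers of H3K9 methylation, HP1-beta (Cbx1), HP1-gamma (Cbx3) and HP1-alpha (Cbx5). Cbx1 (10380689) was 9.85, 9.57, 10.08 and 10.06 in knockout replicates 1 to 4, against 9.97, 9.80, 10.04 and 9.94 in control replicates 1 to 4. The difference was -0.047 ± 0.12 (SE), with a 95% interval of -0.32 to 0.23 (adjusted p = 0.9999). Replicate 2 was the lowest sample of each group, and knockout replicates 3 and 4 were the highest of all 8 samples.

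Cbx3 (10421573, the row with the highest mean) was 11.13, 10.74, 11.40 and 11.36 in knockout replicates 1 to 4, against 11.39, 10.997, 11.23 and 11.44 in control replicates 1 to 4. The difference was -0.11 ± 0.16 (SE), with a 95% interval of -0.47 to 0.25 (adjusted p = 0.9999). Replicate 2 was again the lowest of each group. The 7 rows with the symbol Cbx3 correlated with one another at r = 0.960 to 0.999 over the 8 samples, apart from 1 pair with identical values. Their means lay between 8.75 and 11.21 and their differences between -0.11 and -0.065. The reference lists 6 Cbx3 pseudogenes, and whether these rows measure the gene or its copies was not tested, so that Cbx3 is uncertain in this respect.

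**Figure D2:**
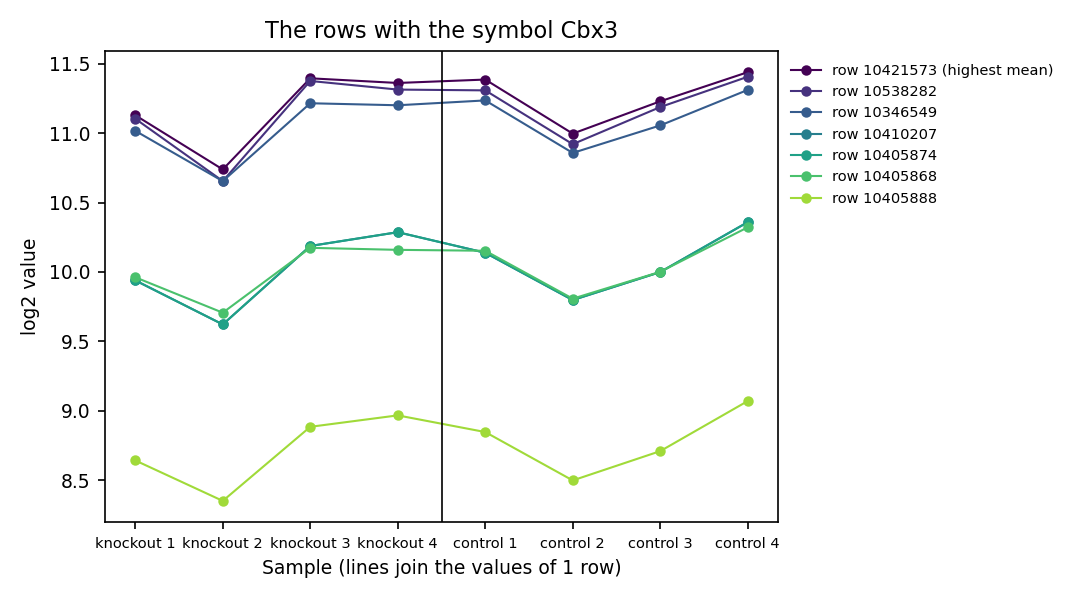
Log2 value of the 7 Cbx3 rows in each sample, knockouts left of the line and controls right of it, with lines joining the values of 1 row. The rows rise and fall together at different levels, with knockout replicate 2 lowest and control replicate 4 highest in each, and 2 rows lie on top of each other.

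Cbx5 (10433088) was 11.50, 11.14, 11.82 and 11.60 in knockout replicates 1 to 4, against 11.77, 11.36, 11.59 and 11.73 in control replicates 1 to 4. The difference was -0.095 ± 0.15 (SE), with a 95% interval of -0.44 to 0.25 (adjusted p = 0.9999). Knockout replicate 3 was the highest sample and knockout replicate 2 the lowest, so that the knockouts enclosed all 4 controls.

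Lbr, the inner nuclear membrane protein that also has sterol reductase activity, had the widest interval. It (10360745) was 10.21, 9.89, 10.79 and 10.66 in knockout replicates 1 to 4, against 10.35, 10.26, 10.72 and 10.32 in control replicates 1 to 4. The difference was -0.023 ± 0.20 (SE), with a 95% interval of -0.47 to 0.43, which is 72.0% to 135% of the control level (adjusted p = 0.9999). Knockout replicates 3 and 4 and control replicate 3 formed its high values, and the knockouts spanned 0.90 against 0.46 in controls.

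**Figure D3:**
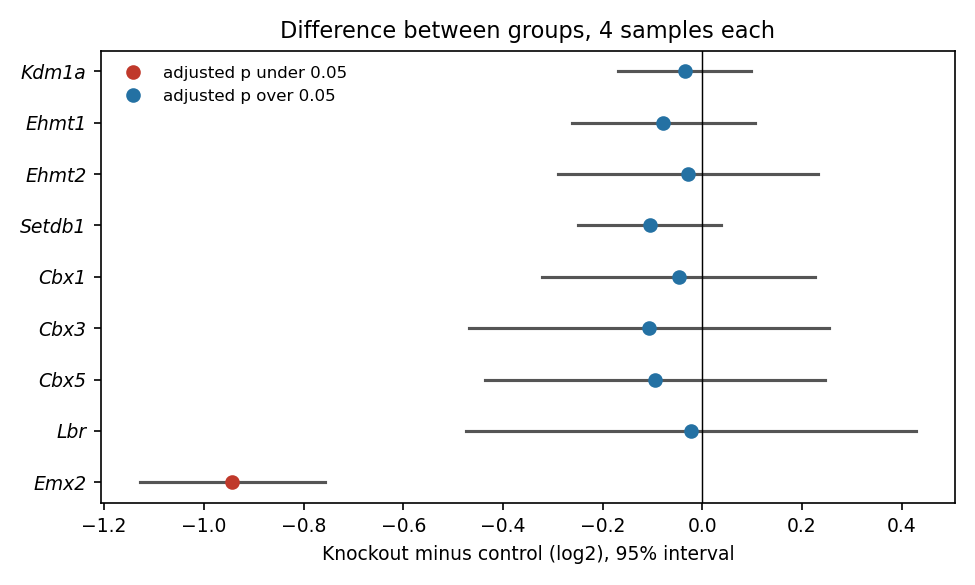
Difference of the log2 values, knockout minus control, for each member and for Emx2, with 95% intervals from limma (4 samples each). All 8 member intervals cross 0, and that of Emx2 runs from -1.13 to -0.76.

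Leaving out knockout replicate 2 turned the sign of Cbx1 (0.060), Cbx3 (0.032), Cbx5 (0.030) and Lbr (0.14), and 0 of 8 members passed. Kdm1a (-0.052), Ehmt1 (-0.031), Ehmt2 (-0.13) and Setdb1 (-0.11) stayed below 0 without it.

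The members differed in how much they varied between samples of one group. The SD within groups was 0.034 for Kdm1a and 0.053 for Setdb1, 0.10 for Ehmt1, 0.17 for Ehmt2 and 0.18 for Cbx1, and 0.24 for Cbx5, 0.26 for Cbx3 and 0.33 for Lbr, against a median of 0.15 over all rows. Among the 2341 rows of the same decile of mean value, 1.67% had a smaller SD than Kdm1a and 2.61% a smaller SD than Setdb1, while 83.8%, 86.1% and 88.9% had a smaller SD than Cbx5, Cbx3 and Lbr. Kdm1a and Setdb1 were therefore steady, and Lbr, Cbx3 and Cbx5 variable. Without knockout replicate 2 the SD was 0.11 for both Ehmt2 and Cbx1, 0.18 for both Cbx3 and Cbx5, 0.25 for Lbr, 0.027 for Kdm1a and 0.058 for Setdb1, against a median of 0.12 over all rows.

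**Figure D4:**
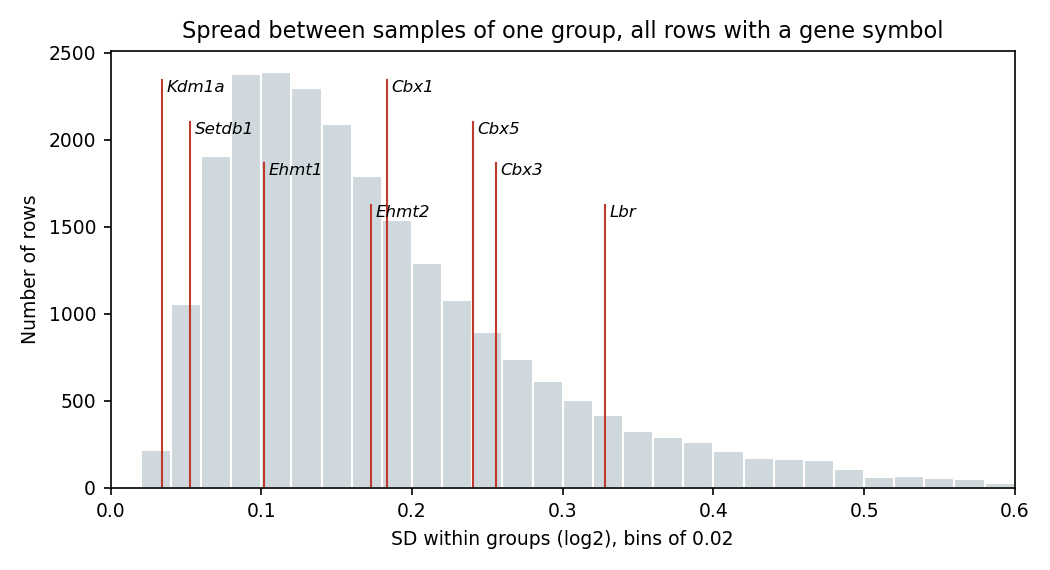
Number of rows with a gene symbol by their SD within groups on the log2 scale, in bins of 0.02, with the members as vertical lines whose height has no meaning. Kdm1a at 0.034 and Setdb1 at 0.053 lie at the left edge, and Lbr at 0.33 lies in the right tail.

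The controls held both genotypes, which were compared with the knockouts and with each other. Control genotype and sex cannot be told apart: both 123Cre:Emx2(fl/+) controls had low Y-linked rows (5.41 and 6.62) and high Xist (12.54 and 12.87), and both Emx2(fl/fl) controls had high Y-linked rows (9.60 and 10.11) and low Xist (6.85 and 7.29). In the fit with 3 genotypes, no member passed in any contrast, where 0.179% of all rows passed for knockout against 123Cre:Emx2(fl/+), 0.137% for knockout against Emx2(fl/fl) and 0% between the control genotypes. At an unadjusted p of 0.05 the members' count was 0 of 8 in each contrast, against 3.54%, 5.47% and 2.04% of all rows in the same order. Cbx3 averaged 11.16 in knockouts, 11.41 in 123Cre:Emx2(fl/+) and 11.11 in Emx2(fl/fl), so that it differed by -0.26 ± 0.19 (SE) from the first control genotype and by 0.043 ± 0.19 from the second. Cbx5 followed the same order, at 11.52, 11.75 and 11.47 in these groups. The difference of 123Cre:Emx2(fl/+) minus Emx2(fl/fl) was 0.30 ± 0.21 (SE) for Cbx3 and 0.28 ± 0.20 for Cbx5 (adjusted p = 0.9975 for both), with 2 samples of each genotype and sex signal. With sex as a term, the difference between knockouts and controls was -0.030 for Cbx3 and -0.012 for Cbx5. Setdb1 averaged 10.21 in knockouts, 10.27 in 123Cre:Emx2(fl/+) and 10.37 in Emx2(fl/fl), and its difference was -0.16 ± 0.076 (SE) from Emx2(fl/fl) (adjusted p = 0.958) and -0.052 ± 0.076 from 123Cre:Emx2(fl/+) (adjusted p = 0.9939).

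The sample titles are numbered 1 to 8, and the sets 1 to 4 and 5 to 8 each hold 2 knockouts and 2 controls. Nothing in the sources says what the order stands for. Lbr was higher in samples 5 to 8 than in 1 to 4, at 10.62 against 10.18, a difference of 0.44 ± 0.13 (SE) with group as a term that did not pass the adjusted threshold (unadjusted p = 0.009334, adjusted p = 0.0895). Differences of Cbx1 (0.24, adjusted p = 0.1327), Cbx3 (0.29, adjusted p = 0.158) and Cbx5 (0.24, adjusted p = 0.2316) had the same sign, and Ehmt2 had the opposite one (-0.22, adjusted p = 0.1436). Kdm1a (-0.039), Ehmt1 (-0.015) and Setdb1 (-0.012) moved least. At an unadjusted p of 0.05, 4 of 8 members differed between the sets, against 30.4% of all rows, and 0% of all rows passed the adjusted threshold. Without knockout replicate 2 the difference was 0.33 for Lbr (unadjusted p = 0.02115), 0.15 for Cbx1, 0.19 for Cbx3, 0.14 for Cbx5, -0.15 for Ehmt2 and -0.074 for Ehmt1, and 1 of 8 members was under an unadjusted p of 0.05, against 23.4% of rows.

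Within these sets of samples, the knockout effect on Lbr was -0.25 ± 0.16 (SE) in samples 1 to 4 and 0.21 ± 0.16 in samples 5 to 8. The difference between these effects was 0.46 ± 0.23 (SE) and did not pass (unadjusted p = 0.0802, adjusted p = 0.9392). Cbx1, Cbx3 and Cbx5 also lay below 0 in samples 1 to 4 (-0.18, -0.26 and -0.24) and above it in samples 5 to 8 (0.080, 0.044 and 0.053), with adjusted p = 0.9392 for each interaction. No member's interaction was under an unadjusted p of 0.05 (0 of 8), against 2.76% of all rows, and 0% of all rows passed the adjusted threshold. Knockout replicate 2 is among samples 1 to 4. Setdb1 kept its sign, at -0.14 ± 0.097 (SE) in samples 1 to 4 and -0.066 ± 0.097 in samples 5 to 8, and so did Kdm1a, at -0.044 and -0.027. With the set as a block, no member passed and the lowest adjusted p was 0.7305, for Setdb1.

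**Figure D5:**
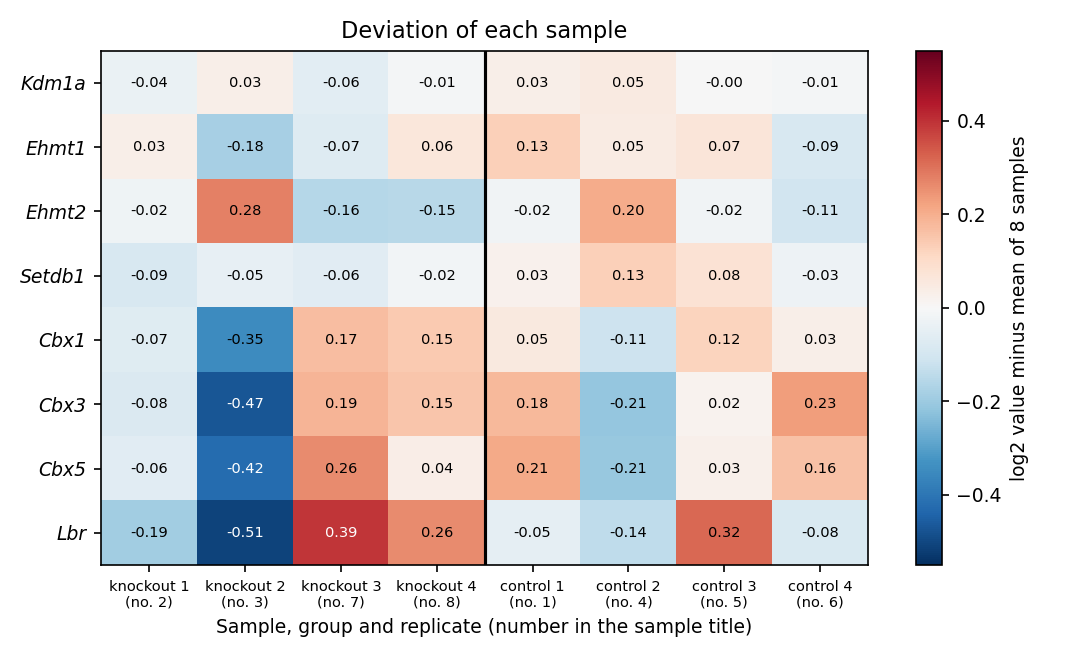
Log2 value of each member in each sample minus the mean of the 8 samples, knockouts left of the line and controls right of it, with the number of the sample title in brackets. Knockout replicate 2 is low for Ehmt1, the 3 HP1 genes and Lbr and high for Ehmt2, and the Kdm1a and Setdb1 rows stay close to 0 throughout.

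Some members varied together over the 8 samples. Of 28 pairs, 7 had a Pearson correlation at an adjusted p under 0.05, and 2 of these also passed with Spearman's rho (exact permutation tests, two-sided, adjusted over the 28 pairs). The share of other row pairs passing this test was not computed. Among other rows above the dimmest 30%, r was over 0.9 with Cbx1 for 11.3%, Cbx3 for 11.4%, Cbx5 for 5.07% and Lbr for 0.995%. The test takes the 8 samples as exchangeable, although the title-number sets differed at an unadjusted p of 0.05 in 30.4% of all rows (limma). Cbx1 and Lbr had r = 0.940 (exact p = 0.0002232, adjusted p = 0.003472) and rho = 0.952 (exact p = 0.001141, adjusted p = 0.03125). Without the 2 samples farthest from the median of Cbx1, knockout replicate 2 and control replicate 2, r was 0.948. Cbx1 also correlated with Cbx3 (r = 0.906) and Cbx5 (r = 0.885), each at an exact permutation adjusted p of 0.02044. For these 2 pairs rho did not pass (exact permutation adjusted p = 0.1943 and 0.1219), and r was 0.49 and 0.45 without the same 2 samples.

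Cbx3 and Cbx5 had r = 0.968 (exact p = 0.000248, adjusted p = 0.003472) and rho = 0.929 (exact p = 0.002232, adjusted p = 0.03125), and r was 0.837 without the same 2 samples. Of the residuals after group and title-number set, r was 0.872 for Cbx1 with Lbr and 0.953 for Cbx3 with Cbx5. This residual r was 0.825 for Cbx1 with Cbx3 and 0.830 for Cbx1 with Cbx5. For Ehmt2 with Cbx1, Cbx3 and Cbx5 it was -0.847, -0.971 and -0.916. Each set holds 4 samples, too few for a correlation within it. Ehmt2 ran against the HP1 genes, with r = -0.902 for Cbx1, -0.926 for Cbx3 and -0.884 for Cbx5 (exact permutation adjusted p = 0.01319, 0.01649 and 0.02044), but rho did not pass (adjusted p = 0.1219, 0.1792 and 0.1792) and r was -0.60, -0.61 and -0.39 without those 2 samples, so that these relations rest in part on them.

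Such correlations were common in these arrays. Of about 15378 other rows above the dimmest 30%, 14.2% had r over 0.9 with Ehmt2, 11.3% with Cbx1, 11.4% with Cbx3 and 5.07% with Cbx5, against 0.995% with Lbr, 0.910% with Kdm1a, 0.312% with Setdb1 and 0.0650% with Ehmt1. On the negative side, r was under -0.9 with Ehmt2 for 11.8% of rows, with Cbx1 for 7.92%, with Cbx3 for 9.89% and with Cbx5 for 5.81%. The rows most like each member, as a description over 8 samples, were Ndufb3 (r = 0.978) and Phf8 (0.976) for Kdm1a, Sin3a (0.964) and Fzd4 (0.959) for Ehmt1, and C1qtnf1 (0.996) and Mgrn1 (0.995) for Ehmt2. For Setdb1 they were Sort1 (0.982) and Nudt10 (0.978), for Cbx1 Sirt1 (0.996) and Dusp11 (0.994), for Cbx3 Ergic2 (0.994) and Canx (0.993), for Cbx5 Abracl (0.989), Shcbp1 (0.985) and Top2a (0.982), and for Lbr Nrbf2 (0.984) and Gid4 (0.983).

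The lists of related genes held 0 genes past the threshold apart from Emx2. Their signs against 0 followed the scaling as those of the members did. Of all 24 lists, 18 had a median below 0, and 2 did with arrays centred on mature OSN genes. That centring moves every row by the same amount and took the median of all rows to 0.15. The lower count therefore follows from the shift and says nothing about the lists themselves. After it, the H3K9 methyltransferases had a median of 0.10, their cofactors 0.091, the H3K9 demethylases 0.12 and Polycomb repressive complex 2 one of 0.087. Each of these medians lay below that of all rows with and without the centring, an order that such a shift cannot change. Of 8 measured H3K9 methyltransferases, the members among them, 0 passed, 7 lay below 0 and the median was -0.039. Suv39h2, the paralogue of Suv39h1 that also trimethylates pericentric H3K9, was lowest at -0.29 ± 0.18 (SE, adjusted p = 0.9324), and Setdb2 was at 0.088. Of 9 cofactors of these enzymes 0 passed, with Cdyl2, a chromodomain corepressor, at -0.18 (unadjusted p = 0.037, adjusted p = 0.7852) and Pphln1, a subunit of the HUSH silencing complex, at -0.14. The 3 H4K20 methyltransferases, of which Kmt5b and Kmt5c are recruited by HP1, ranged from -0.12 for Kmt5b to -0.020 for Kmt5a, and 0 passed.

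Among 12 H3K9 demethylases 0 passed and the median was -0.022, with Kdm1b, the relative of Kdm1a, at -0.11 (adjusted p = 0.9235). The 11 further LSD1 and CoREST complex genes had a median of 0.00041 and 0 passed, and Phf21b was at 0.18 (adjusted p = 0.8649) and the deacetylase Hdac2 at -0.12 (adjusted p = 0.9999), while the scaffold Rcor1 was at 0.00041. Of 11 HP1 partners 0 passed, with Incenp, a chromosomal passenger protein, at -0.16 and the remodeller Chd4 at -0.11. The median over these partners was -0.049.

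The Polycomb proteins, which read and write another silencing mark, H3K27 methylation, were included as relatives. The 3 measured Polycomb CBX genes ranged from -0.19 for Cbx8 to 0.075 for Cbx7, and 0 passed. Of 9 genes of Polycomb repressive complex 2, 8 lay below 0 and 0 passed, with Jarid2 at -0.27 ± 0.093 (SE, unadjusted p = 0.01784, adjusted p = 0.703). Of 14 genes of the nuclear lamina and inner nuclear membrane, where Lbr resides, 0 passed, and Lmnb1, the lamin B that Lbr binds, was at -0.21 ± 0.083 (SE, unadjusted p = 0.03344, adjusted p = 0.7823) and Syne1 at 0.13. The 5 sterol reductase relatives of Lbr had a median of -0.054 and the 13 DNA methylation genes one of -0.087, with 0 passing in each. With 1 sample left out these medians ranged from -0.091 to -0.019 and from -0.095 to -0.025.

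In the list of 18 genes of OR feedback and OR choice, Emx2 was the only one past the threshold. Rtp2, a chaperone that helps bring ORs to the cell surface, was at -0.40 ± 0.078 (SE, adjusted p = 0.1279), Trib3 at -0.25 (adjusted p = 0.8101), and Adcy3, the adenylyl cyclase whose onset ends Kdm1a expression, at -0.11 (adjusted p = 0.9187). Without knockout replicate 2, Rtp2 also passed, at -0.45 (adjusted p = 0.03623). Of cell type markers, 15 of 18 mature OSN genes lay below 0 (median -0.11) and 13 of 14 immature OSN genes did so (median -0.15), with 0 passing in either list. The paper reports OSN numbers, mature and immature, as unchanged in its conditional Emx2 knockouts. Without knockout replicate 2, 2 mature OSN genes passed, S100a5 at -0.64 (adjusted p = 0.00999) and Rtp2. The mean of the mature OSN list was 11.03 to 11.16 in knockouts and 11.19 to 11.29 in controls, and that of the immature OSN list was 11.09 to 11.20 in knockouts and 11.20 to 11.36 in controls. All 14 cell cycle genes lay below 0 (median -0.079), but the median was 0.00048 without control replicate 1, whose mean of the list was 10.73 against 10.38 to 10.51 in the other controls. All 9 respiratory ciliated cell genes lay above 0 (median 0.23), as did all 7 skeletal muscle genes (0.10), 6 of 8 gland genes (0.16) and 8 of 10 leukocyte genes (0.12). All 6 ensheathing and Schwann cell genes lay below 0 (median -0.12), as did 5 of 7 olfactory bulb and brain genes (-0.23) and all 4 erythroid genes (-0.13). In each of these lists 0 passed. Basal cells and OSN progenitors had a median of -0.044 and sustentacular cells one of 0.019. With 1 sample left out these medians ranged from -0.055 to 0.022 and from -0.010 to 0.085. In the basal and progenitor list 7 of 11 genes lay below 0, Sox2 lowest at -0.15. Krt14 (0.43), Krt5 (0.43) and Trp63 (0.19) lay above 0, and 0 passed. The part of these markers in the members' values was not tested.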

How the data were processed

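Total RNA of 8 samples of olfactory mucosa was hybridised to GeneChip Mouse Gene 1.0 ST arrays, 1 per sample. Groups were taken from the phenotype labels, which mark each sample as knockout or control littermate. The authors deposited log2 values per transcript cluster, each combining the probe sets over the exons of a gene. Per the submitters' processing notes this was done in Affymetrix Expression Console. Version, background correction and normalisation: not given in the sources used here. Values were used as deposited. Scanner files were not used here, so signal over background is unknown, and the number of arrays limits the precision. No column was left unmapped (0).

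Gene symbols came from the platform annotation, where 21698 of 21789 single-symbol rows had their gene number in the reference table. Two-sided tests on the 23410 rows with a symbol used lmFit and eBayes of limma 3.58.1 (R 4.3.3), with Benjamini-Hochberg adjustment over these rows and a threshold of 0.05. The contrasts were knockout against control, the 3 genotypes, and the title-number sets 1 to 4 and 5 to 8. The procedure was tested on simulated data. Correlations and their exact permutation tests used Python 3.11.15 with scipy 1.17.1, and the single-gene exact permutation tests used R. Promoter windows came from RefSeq (GRCm38.p6). Of several rows for a gene, that with the highest mean was used.

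The text names all members, the checks Emx2, Lhx2, Omp and Gap43, any list gene past the threshold and up to 4 of each list with the largest difference, and up to 3 rows most like each member. Adcy3 and the list genes Kmt5a and Rcor1 were named after their values were seen. The members and lists were chosen with earlier results of these data known. Per the study's methods, the litters that gave knockouts also gave controls, so that samples share litters across groups, and which sample came from which litter was not used here. The labels do not say whether a sample is 1 animal or a pool. The p-values measure only the spread between these samples.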

Additional observations from a re-analysis of the deposited data

How the results depend on the processing

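No member passed the adjusted threshold under any of the 20 alternatives to the fit, and the lowest adjusted p of a member was 0.3974. The count of members at an unadjusted p of 0.05 was 0 except with the methods' t-test, where it was 1, Setdb1, against 7.08% of all rows under that test. The count of all rows past the threshold, 84, was 28 with the methods' t-test, 27 without the dimmest 30% of rows, 224 with array weights, 32 with 123Cre:Emx2(fl/+) controls only and 25 with Emx2(fl/fl) controls only, and it ranged from 46 (without knockout replicate 1) to 132 (without knockout replicate 2) when 1 sample was left out.

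Signs of the members turned in several settings. With arrays centred on mature OSN genes the differences were 0.11 for Kdm1a, 0.063 for Ehmt1, 0.11 for Ehmt2, 0.036 for Setdb1, 0.094 for Cbx1, 0.035 for Cbx3, 0.046 for Cbx5 and 0.12 for Lbr, since this centring moved the median of all rows to 0.15. Array weights gave 0.028 for Cbx1, 0.027 for Cbx3 and 0.069 for Lbr. Lbr was at 0.00081 with quantile normalisation and 0.013 with sex, read from Y-linked rows, as a term. With 123Cre:Emx2(fl/+) controls only, Ehmt2 was at 0.049 and Lbr at 0.055, and with Emx2(fl/fl) controls only, Cbx3 and Cbx5 were both at 0.043. With 1 sample left out, the difference ranged from -0.11 to 0.060 for Cbx1, from -0.20 to 0.032 for Cbx3, from -0.20 to 0.030 for Cbx5, from -0.13 to 0.035 for Ehmt2 and from -0.16 to 0.14 for Lbr. Kdm1a, Ehmt1 and Setdb1 stayed below 0 in each of these 8 fits, and Emx2 stayed between -0.98 and -0.89. The causes were not tested, other than the shift that centring on OSN genes makes by construction.

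No paired analysis was possible because the labels give no replicate numbers shared between the groups. The fits without knockout replicate 2 in the comparison of title-number sets, the correlations and the spread without it, were chosen after seeing the data. Knockout replicates 1 and 4 had high Y-linked rows together with Xist at 9.15 and 9.93, between the values of the other samples with high Y-linked rows, 6.85 to 7.29, and those with low ones, 12.54 to 13.07, so that the sex term is uncertain and n counts samples that may not be single animals. Sex as a term gave -0.030 for Cbx3, -0.012 for Cbx5 and -0.014 for Cbx1. Of the 24 lists, the median of 8 changed sign when 1 sample was left out. With 4 samples a group, the intervals of Cbx3, Cbx5 and Lbr reach down to 72.3%, 73.9% and 72.0% of the control level.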
